A study of Mus musculus with 3 samples.

Results

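Chondrocyte-like cells of the mouse patellar tendon at 2 weeks of age were chosen by cartilage genes. They were the cell barcodes of the 2-week library in which at least 3 of Col9a1, Col9a3, Cnmd, Ucma, Hapln1 and Snorc had at least 1 unique molecular identifier (UMI, the count of captured mRNA molecules). Of 4964 barcodes that passed the filters (500 or more genes, 1000 or more UMIs, no more than 10% of UMIs from mitochondrial genes), 422 met this rule, or 8.50% (exact binomial 95% interval 7.74 to 9.31). The study prepared 3 droplet libraries from patellar tendons of WT mice, 1 at 2 weeks and 2 at 20 weeks of age, and 6588 barcodes passed in all. Cells of the blood lineage and the endothelium had been left out by flow sorting. The labels name no treatment, and the number of animals behind each library is not given in them. Since these cells share 1 library and were chosen by their counts, no test was possible. Every comparison below is a description, and every interval covers counting error alone.

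Cartilage is built by chondrocytes, which secrete fibrils of type II collagen with types IX and XI, and the proteoglycan aggrecan, held on hyaluronan by link protein. The transcription factor SOX9, with its partners SOX5 and SOX6, switches these genes on. Tendons join bone through fibrocartilage, whose cells make cartilage matrix beside the type I collagen of tendon. Tendon cells (tenocytes) are known by the transcription factor Scleraxis (Scx) and the membrane protein tenomodulin (Tnmd).

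The bases upstream of 4 cartilage genes are shown. Col9a1, Cnmd and Ucma belong to the rule that chose the cells, and Cytl1 does not. The bases upstream of Tnmd are shown because it marks the tendon cells used for comparison. They come from RefSeq on GRCm38.p6, end at the base before the RefSeq start, and are written 5′ to 3′ on the gene's own strand. The Cnmd start lies 13 bases upstream of the GENCODE start, and the Tnmd window ends before the GENCODE start, 28 bases upstream of the RefSeq one. Capitals mark matches on either strand to ACAAT, a core of the SOX motif, and to the E-box CAGNTG, which basic helix-loop-helix factors such as Scleraxis can bind. The other strand reads ATTGT for the former and CANCTG for the latter.
Col9a1, chr1:24177360-24177609, + strand: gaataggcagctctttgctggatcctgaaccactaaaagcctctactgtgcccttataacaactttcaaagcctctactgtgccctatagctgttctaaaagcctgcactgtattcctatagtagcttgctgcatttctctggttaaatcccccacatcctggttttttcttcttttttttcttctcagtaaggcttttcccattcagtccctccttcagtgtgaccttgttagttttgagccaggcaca
Cnmd, chr14:79662184-79662433, - strand: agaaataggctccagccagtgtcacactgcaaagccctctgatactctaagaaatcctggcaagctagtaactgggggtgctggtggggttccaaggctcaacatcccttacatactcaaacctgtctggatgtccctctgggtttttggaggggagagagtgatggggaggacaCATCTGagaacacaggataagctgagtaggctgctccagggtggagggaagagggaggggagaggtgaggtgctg
Ucma, chr2:4975872-4976121, + strand: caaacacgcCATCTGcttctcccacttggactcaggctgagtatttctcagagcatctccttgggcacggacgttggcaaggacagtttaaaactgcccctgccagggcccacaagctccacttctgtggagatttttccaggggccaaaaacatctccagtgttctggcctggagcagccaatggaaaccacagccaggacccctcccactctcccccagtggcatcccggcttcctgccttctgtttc
Cytl1, chr5:37735269-37735518, + strand: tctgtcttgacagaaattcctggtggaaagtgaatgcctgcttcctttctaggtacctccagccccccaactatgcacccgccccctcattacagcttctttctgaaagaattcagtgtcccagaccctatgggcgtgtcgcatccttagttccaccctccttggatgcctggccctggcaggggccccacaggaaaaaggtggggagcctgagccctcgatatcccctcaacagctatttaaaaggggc
Tnmd, chrX:133850758-133850979, + strand: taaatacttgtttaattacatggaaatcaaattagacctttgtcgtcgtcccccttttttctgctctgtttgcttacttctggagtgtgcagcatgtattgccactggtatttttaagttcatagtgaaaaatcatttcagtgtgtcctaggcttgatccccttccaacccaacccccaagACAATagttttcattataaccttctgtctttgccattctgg
ACAAT was not found in the 4 cartilage windows, and was found once in the Tnmd window of 222 bases. The E-box was found once each in the Cnmd and Ucma windows and not in the other 3, and no E-box overlapped an ACAAT. Of 32851 windows of 250 bases before RefSeq starts, 27.7% held ACAAT and 44.8% the E-box. Of 13 genes looked for, 8 had an entry. Col9a3, Snorc, Col2a1, Prg4 and Scx had none.

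The 2-week library held 5654 barcodes and 35556626 UMIs, against 715 barcodes with 1886785 UMIs and 1169 barcodes with 5849867 UMIs at 20 weeks. The chondrocyte-like cells held 2786906 UMIs, from 1080 to 39453 each, with a median of 6208 UMIs and 2006.5 genes. The other 4542 barcodes had a median of 6615 UMIs. Counts of the added features EGFP and tdTomato were present in all 3 libraries although their labels read WT. The libraries shared 0 to 3 barcodes, and 1 of the chondrocyte-like cells carried a barcode also present in a 20-week library. A second reference was the 797 barcodes with at least 3 Tnmd UMIs and at least 1 Scx UMI outside the rule, called Tnmd/Scx cells here, with a median of 7964 UMIs. The Tnmd and Scx condition was also met by 57 of the 422 chondrocyte-like cells (13.5%), which were kept among them. No doublet caller was run. Above 20000 UMIs there were 5 chondrocyte-like cells. At least 3 of 7 mural cell markers were found in 2 chondrocyte-like cells, of 8632 and 39453 UMIs.

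Some cartilage genes outside the rule, but not all genes of interest, were ordered by the number of rule genes detected. Barcodes with 0, 1, 2, 3, 4, 5 and 6 rule genes numbered 3871, 517, 154, 97, 93, 100 and 132. Col2a1, the chain of type II collagen, was at 40.8, 235, 311, 1040, 1236, 4647 and 10041 UMIs per 1000000 UMIs (CPM) in these sets. It was thus higher in each set than in the one before. Sox9 was at 21.6, 49.7, 101, 160, 197, 285 and 286 CPM, with the largest step from 4 to 5 rule genes and almost none from 5 to 6. Acan, the aggrecan core protein, was at 14.0 CPM with no rule gene and at 518 CPM with 6. Other genes had their highest level between the ends. Prg4, the joint lubricant, was at 161 CPM with no rule gene, 4562 CPM with 5 and 2582 CPM with 6, and Spp1, a protein of mineralizing matrix, at 22.8, 2714 and 57.1 CPM with 0, 3 and 6. Tnmd, Scx and Col1a1 were highest with 2 rule genes: Scx was at 879 CPM with 2, 149 CPM with 3 and 30.6 CPM with 6.

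The cut at 3 rule genes divided cells that were alike in some genes and unlike in others. Just inside it, 97 barcodes with exactly 3 had 1040 CPM of Col2a1 (exact Poisson 95% interval 961 to 1123), and just outside it 154 barcodes with 2 had 311 CPM (281 to 344). Acan was at 177 CPM (145 to 213) inside and 160 CPM (139 to 184) outside, intervals that overlap. Sox9 was at 160 CPM (130 to 195) inside and 101 CPM (83.8 to 120) outside. Tnmd was at 1841 CPM inside and 4958 CPM outside, and the Tnmd and Scx condition was met by 22.7% and 48.1% of these barcodes. Median depth was 5715 and 6497 UMIs.

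**Figure D1:**
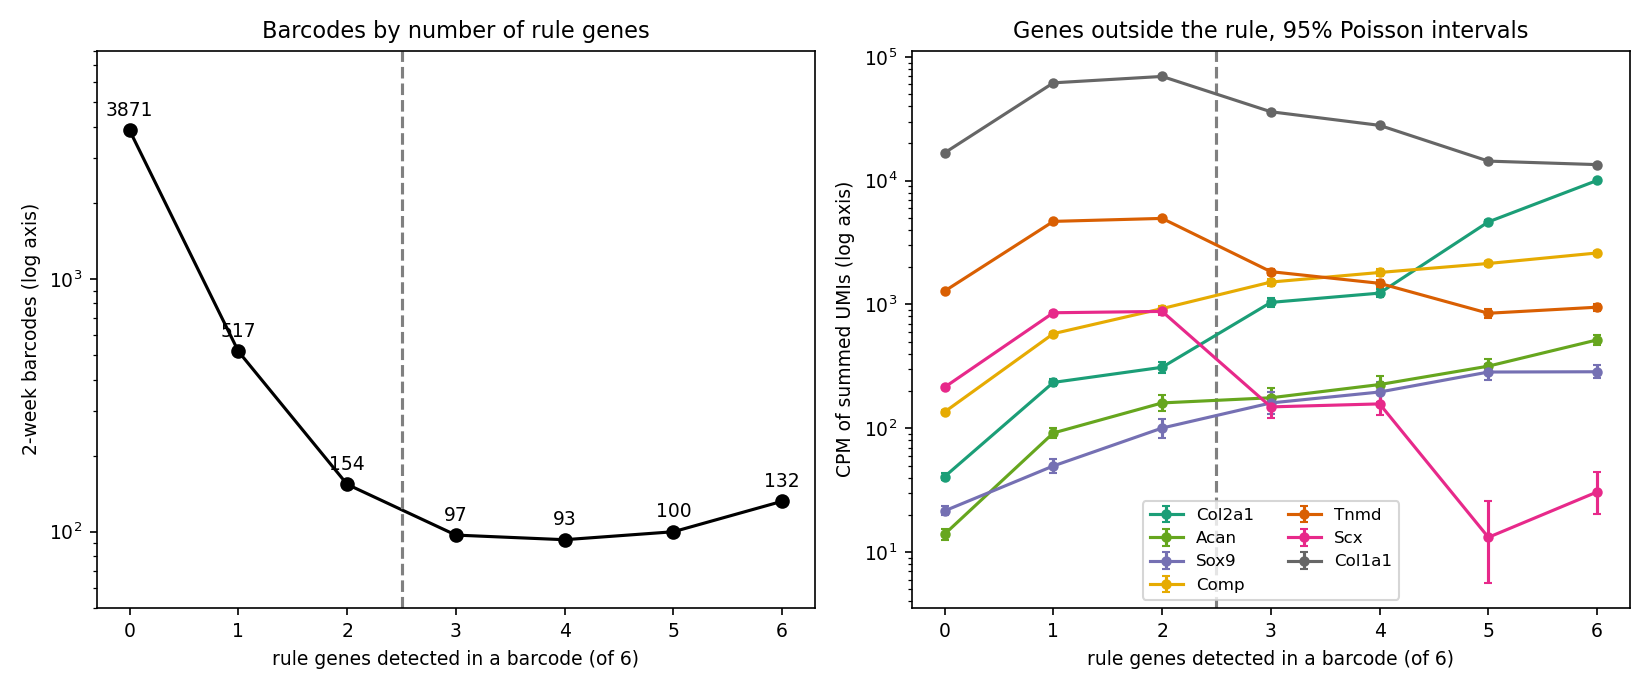
Left: passing 2-week barcodes (log axis) by the number of rule genes detected, from 3871 with none to 132 with all 6; the dashed line is the threshold of 3. Right: CPM (log axis) of Col2a1, Acan, Sox9, Comp, Tnmd, Scx and Col1a1 over the same sets with exact Poisson 95% intervals; Col2a1 climbs from 40.8 to 10041 CPM, while Scx is at 879 CPM with 2 rule genes and 30.6 CPM with 6.

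The 6 rule genes chose the cells, so their levels carry no evidence of their own. Col9a1 and Col9a3 encode chains of type IX collagen, which coats type II fibrils. Col9a3 (chr2:180597790-180622189, + strand, GRCm38) was at 1238 CPM (1197 to 1280) in the chondrocyte-like cells, 5.50 in all other barcodes and 5.23 in Tnmd/Scx cells. Col9a1 (chr1:24177610-24252684, + strand) was at 693 CPM (662 to 724), against 2.81 and 3.58 CPM. Hapln1, the link protein, was detected most often, in 380 cells. It was at 614 CPM (585 to 644), against 15.1 in the other barcodes and 32.6 in Tnmd/Scx cells. Ucma, a secreted cartilage protein with gamma-carboxylated residues, was at 1144 CPM (1105 to 1184), against 19.3 and 72.7 CPM. Cnmd, chondromodulin, a membrane protein related to tenomodulin that restrains vessel growth, was at 514 CPM (488 to 541), against 3.31 and 7.43 CPM. Snorc, a transmembrane proteoglycan of chondrocytes, was at 988 CPM (952 to 1026) and was the least widely detected of the 6, in 253 cells (60.0%). Snorc was at 4.57 CPM in the other barcodes and 9.63 in Tnmd/Scx cells.

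Detection depends on depth and on free RNA in the droplets. Barcodes with at least 3 mural cell markers, which should lack cartilage genes, numbered 967. Chondrocyte-like cells and barcodes that met the Tnmd and Scx condition had been left out of them. This choice in itself limits the shares of rule genes below. The median of the mural-marker barcodes was 7022 UMIs, against 6208 in the chondrocyte-like cells. Of these mural-marker barcodes, 0.517% had a Col9a3 UMI, 1.03% a Col2a1 UMI and 3.21% a Sox9 UMI. The chondrocyte-like cells had these in 87.4%, 77.5% and 61.4%. With each cell thinned to 2000 UMIs, which left 402 of the 422, the shares in chondrocyte-like cells were 72.1%, 68.7% and 36.1%. The thinned shares in mural-marker barcodes were 0.214%, 0.107% and 1.39%.

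Over all genes, 12044 had at least 2 CPM over the passing 2-week barcodes. On the log2(CPM + 1) scale, 484 of them (4.02%) were at least 2-fold higher in the chondrocyte-like cells than in the other barcodes, and 1700 (14.1%) at least 2-fold lower. Against the Tnmd/Scx cells, 912 (7.57%) were higher and 824 (6.84%) lower. Higher and lower are used below for this 2-fold limit, and log2 ratios are on the log2(CPM + 1) scale. The counts of each list below are to be set beside these shares over all genes. The rule used both contrasts, so nothing is read from these shares, and a gene that reached 2 CPM through the chondrocyte-like cells alone had to differ. The median log2 ratio over all genes was −0.18 against the other barcodes and 0.10 against Tnmd/Scx cells. Scaling by the median of ratios moved these medians by 0.17 and −0.10. Leaving the 20 most abundant genes out of the totals moved the second by −0.14, and the share of higher genes among those past the limit from 52.5% to 40.2%.

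The other collagens of cartilage were led by Col2a1. All 5 collagens of the list outside the rule that passed the filter, of 6 listed, were higher than in the other barcodes, with a median log2 ratio of 2.54. Against Tnmd/Scx cells 3 of the 5 were higher and the median was 3.84. Col2a1 (chr15:97975602-98004695, − strand) gave 13728 UMIs in the chondrocyte-like cells, or 4926 CPM (4844 to 5009). It was at 77.6 CPM (74.6 to 80.7) in the other barcodes and 303 CPM (290 to 316) in Tnmd/Scx cells. These are ratios of 63.5 (60.8 to 66.3) and 16.3 (15.6 to 17.0). Col2a1 was however spread over the tendon cells too: 69.3% of Tnmd/Scx cells had at least 1 UMI of it, and 37.3% after thinning.

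The partners of type II collagen divided into those scarce in tendon cells and those shared with them. Col9a2, the remaining chain of type IX collagen, was at 461 CPM in the chondrocyte-like cells, 4.75 in the other barcodes and 7.01 in Tnmd/Scx cells. Col27a1, a fibrillar collagen of cartilage, was at 147, 24.5 and 9.35 CPM. Col11a1 and Col11a2 encode type XI collagen, which sits in the core of the fibril. Col11a1 was at 2284 CPM in the chondrocyte-like cells, 468 in the other barcodes and 1688 in Tnmd/Scx cells, a log2 ratio of 2.29 against the former and 0.44 against the latter. Col11a2 was at 508, 167 and 672 CPM, with log2 ratios of 1.60 and −0.40. Both were therefore higher than in the other barcodes and within 2-fold of the Tnmd/Scx cells. Col10a1, the collagen of hypertrophic cartilage, had no UMI.

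**Figure D2:**
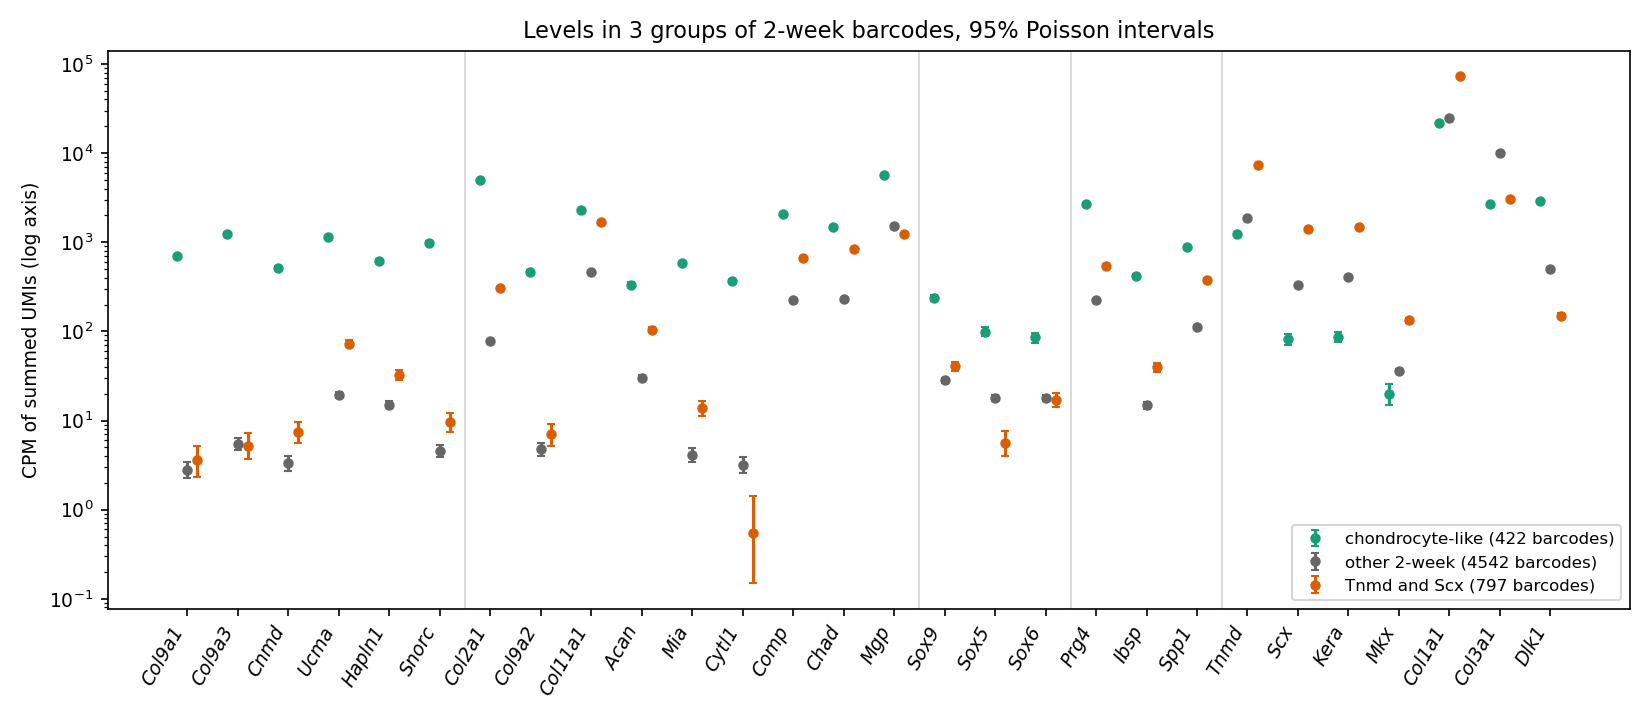
CPM (log axis) of 28 genes, with exact Poisson 95% intervals, in the 422 chondrocyte-like cells (green), the 4542 other 2-week barcodes (grey) and the 797 Tnmd/Scx cells (orange). Col2a1 is at 4926, 77.6 and 303 CPM in the 3 sets, and Scx at 81.1, 328 and 1406 CPM.

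Among the proteoglycans and other matrix proteins of cartilage outside the rule, 16 of 19 passed the filter. Against the other barcodes 10 were higher and 1 lower (median log2 ratio 1.32), and against Tnmd/Scx cells 7 were higher and 3 lower (median 0.82). Mia, a small protein secreted by chondrocytes, was at 578 CPM in the chondrocyte-like cells, 4.10 in the other barcodes and 13.8 in Tnmd/Scx cells. Mia had the largest log2 ratio against the other barcodes of any gene outside the rule, 6.83. Cytl1, a secreted protein of cartilage, was at 367 CPM from 142 of the 422 cells. It was at 3.19 CPM in the other barcodes and, with 4 UMIs, at 0.550 CPM in Tnmd/Scx cells, a ratio of 668 (260 to 2456). Cytl1 thus separated the chondrocyte-like from the Tnmd/Scx cells while being absent from the counts of most chondrocyte-like cells.

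Acan was at 334 CPM (313 to 356) in the chondrocyte-like cells, 30.2 in the other barcodes and 105 in Tnmd/Scx cells, ratios of 11.1 (10.1 to 12.1) and 3.19 (2.89 to 3.51). Comp, the pentameric matrix protein of cartilage and tendon that binds collagen fibrils, was detected in 417 of the 422 cells. Comp was at 2089 CPM, against 227 in the other barcodes and 661 in Tnmd/Scx cells. Chad, chondroadherin, a cell-binding protein with leucine-rich repeats, was at 1485, 231 and 848 CPM, and its log2 ratio of 0.81 against Tnmd/Scx cells is inside the limit. Scrg1 was at 433, 22.0 and 73.0 CPM.

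Some matrix genes of the same list were at or below the level of tendon cells. Fmod, fibromodulin, a collagen-binding proteoglycan abundant in both tissues, was at 2144 CPM in the chondrocyte-like cells and 3426 CPM in Tnmd/Scx cells. Matn3 and Matn4 encode matrilins, adaptor proteins of the cartilage matrix. Matn4 was at 63.5 CPM in the chondrocyte-like cells and 210 CPM in Tnmd/Scx cells, and Matn3 was at 5.38 and 12.1 CPM. Cilp was at 72.1 CPM against 199 CPM. Vcan, versican, the hyaluronan-binding proteoglycan of loose and embryonic matrix, was the only one lower than in the other barcodes, at 79.7 against 281 CPM. Matn1, a marker of hyaline cartilage, did not pass the filter. Its 8 UMIs were all in the chondrocyte-like cells, at least 30.6-fold above the other barcodes when those are set at 3 counts over the group.

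Of the chondrogenic transcription factors, 12 of 16 passed the filter. Against the other barcodes 8 were higher and none lower (median log2 ratio 1.57), and against Tnmd/Scx cells 7 were higher and 1 lower (median 1.48). Sox9 was at 238 CPM (220 to 257) in the chondrocyte-like cells, 28.5 in the other barcodes and 40.8 in Tnmd/Scx cells, ratios of 8.37 (7.57 to 9.27) and 5.83 (5.08 to 6.71). Sox5 was at 99.4, 18.0 and 5.64 CPM, and Sox6 at 85.4, 17.9 and 16.9 CPM. All 3 factors of the trio were therefore higher in both comparisons. Sox5 and Sox6 were not confined to cartilage-gene cells: mural-marker barcodes had 43.7 CPM of Sox5 and 47.9 CPM of Sox6.

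Wwp2, a ubiquitin ligase whose gene hosts a microRNA of cartilage, was at 211 CPM against 23.1 and 27.8 CPM. Barx1, a homeobox factor of joint and facial mesenchyme, was at 117, 12.3 and 18.3 CPM. Trps1, a GATA-type repressor of the growth plate, was at 350, 101 and 161 CPM. Runx2, the factor of hypertrophic chondrocytes and osteoblasts, was sparse, with 25 UMIs in 21 cells, or 8.97 CPM against 2.88 and 6.88 CPM. Runx1 was lower than in Tnmd/Scx cells, at 26.2 against 59.5 CPM. Foxa2, which acts in hypertrophic differentiation, had 7 UMIs, all in the chondrocyte-like cells.

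Growth plate and hypertrophy genes were present in part. Of 13 listed, 7 passed the filter, 5 were higher than in the other barcodes and none lower (median log2 ratio 2.42). The same counts held against Tnmd/Scx cells, with a median of 1.21. Col10a1, Ihh, Mmp13 and Panx3, genes of prehypertrophic or hypertrophic chondrocytes, were at 0 UMIs, so 3 counts in 2786906 UMIs is the limit these zeros allow. The other barcodes had 1 UMI of Col10a1, 11 of Ihh and 0 of Mmp13 and Panx3. These zeros therefore do not set the chondrocyte-like cells apart. Fgfr3, the growth factor receptor that slows chondrocyte proliferation, was at 22.3 CPM (62 UMIs), against 1.53 in the other barcodes and 0.825 in Tnmd/Scx cells. Being below 2 CPM in the other barcodes, Fgfr3 passed the filter only through the chondrocyte-like cells, so its higher level was fixed by the filter. Pth1r, the receptor that holds back hypertrophy, was at 79.7, 35.9 and 51.8 CPM. Ibsp and Spp1, 2 acidic proteins of mineralizing matrix, were at 416 and 879 CPM, against 14.9 and 113 in the other barcodes. Both came from few cells, 43 for Ibsp and 53 for Spp1, of which 37 had both.

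The levels of Ibsp, Spp1 and Alpl rested on 51 chondrocyte-like cells, described below as sub-cluster 4. Without them the log2 ratio of Spp1 against the other barcodes was −0.53 in place of 2.95, and that of Alpl, the phosphatase that releases phosphate for mineral, was −0.76 in place of 2.42. That of Ibsp was 1.61 in place of 4.72. The number of growth plate genes higher than in the other barcodes was then 2 of 7 in place of 5, with a median of 0.03. It was 2 higher and 1 lower against Tnmd/Scx cells, with a median of 0.27, and the log2 ratios there were −2.27 for Spp1 in place of 1.21, 0.11 for Alpl in place of 3.28 and 0.24 for Ibsp in place of 3.35. Spp1 was also below the Tnmd/Scx cells with at least 4 rule genes (−0.63), with at least 2 UMIs per rule gene (−0.79), after thinning (−0.95), and without the cells that also met the Tnmd and Scx condition (−0.59).

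The hedgehog pathway, whose ligand Ihh is made by prehypertrophic chondrocytes, had 10 of 12 genes past the filter. Of these 3 were higher and 2 lower than in the other barcodes (median log2 ratio 0.65), and 3 were higher and none lower than in Tnmd/Scx cells (median 0.61). Over all genes 4.02% were higher and 14.1% lower in the first comparison, and 7.57% and 6.84% in the second. The ligands Ihh and Shh were at 0 UMIs in the chondrocyte-like cells. Ptch1, the receptor and a target of the pathway, was at 37.3 CPM against 14.2 and 13.1 CPM. Gli1, a transcription factor and target, was at 15.4 CPM (43 UMIs) against 4.41 and 5.23 CPM. The coreceptor Boc was at 159, 60.5 and 61.7 CPM. The ratio of Ptch1 was inside the limit without sub-cluster 4, at 0.60 on the log2 scale against the other barcodes and 0.71 against Tnmd/Scx cells.

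Genes of the articular surface and joint gave 5 higher and 1 lower of 12 against the other barcodes (median log2 ratio 0.66), and 5 higher and 2 lower against Tnmd/Scx cells (median 0.56). Prg4 (chr1:150449412-150466165, − strand), lubricin, the lubricant of joint and tendon surfaces, was the most abundant of them, at 2655 CPM. It was at 225 CPM in the other barcodes and 547 CPM in Tnmd/Scx cells. Of its 7400 UMIs, 5780 were in the 90 cells described below as sub-cluster 2, and the remaining chondrocyte-like cells were at 715 CPM, within 2-fold of the Tnmd/Scx cells. Prg4 was detected in 210 of the chondrocyte-like cells (49.8%) and in 54.0% of Tnmd/Scx cells, so the levels differed more than the share of cells. Thinned to equal depth, these shares were 41.5% and 35.4%. In mural-marker barcodes the share was 1.86%. Erg, an ETS factor of articular chondrocytes, was at 46.7, 5.16 and 16.2 CPM. Creb5, a factor that acts on Prg4 in articular cartilage, was at 200, 106 and 26.1 CPM. Gdf5, the growth factor of forming joints, was low, with 27 UMIs or 9.69 CPM against 2.25 and 7.29 CPM. Without sub-cluster 4 the counts against Tnmd/Scx cells were 4 higher and 4 lower (median −0.34). With all cells kept, 4.02% of all genes were higher and 14.1% lower than in the other barcodes. Against Tnmd/Scx cells these shares were 7.57% and 6.84%.

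Signalling genes did not move one way. Over all genes, 4.02% were higher and 14.1% lower than in the other barcodes, and 7.57% and 6.84% against Tnmd/Scx cells. Of 27 genes of the bone morphogenetic protein (BMP) and TGF-beta families, 4 were higher and 4 lower than in the other barcodes (median log2 ratio 0.13, and −0.14 without sub-cluster 4), and the same numbers were found against Tnmd/Scx cells (median −0.04). The higher genes included secreted antagonists: Grem1 was at 84.0 CPM against 8.85 and 24.8 CPM, and Chrdl2 at 17.2 CPM against 2.97 and 0.275 CPM. Id1, a target of BMP signalling, was at 443 CPM against 161 and 142 CPM. Chrdl1, another antagonist, was at 4.31 CPM, below 26.3 and 43.7 CPM. Tgfbi, an adhesive matrix protein induced by TGF-beta, was at 96.2 CPM, below 255 and 402 CPM.

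Among FGF, IGF and Wnt genes 20 of 21 passed. Against the other barcodes 6 were higher and 7 lower (median log2 ratio −0.11), and against Tnmd/Scx cells 6 were higher and 5 lower (median 0.37). Fgfr2 was at 83.3 CPM against 12.8 and 15.5 CPM. The secreted Wnt antagonists Frzb and Sfrp1 were at 154 and 124 CPM, against 11.2 and 49.1 in the other barcodes and 33.7 and 10.3 in Tnmd/Scx cells. The lower genes were of the IGF system. Igf1, the growth factor, was at 167 CPM against 1061 and 554 CPM. Its binding protein Igfbp3 was at 43.1 CPM against 341 and 154 CPM, and Igfbp6 at 183 CPM against 1608 and 880 CPM.

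Genes that build and sulfate glycosaminoglycan chains, the charged sugars of aggrecan, gave 6 higher and 1 lower of 25 against the other barcodes (median log2 ratio 0.28), and 4 higher and none lower against Tnmd/Scx cells (median 0.26). All genes gave 4.02% higher and 14.1% lower in the first comparison, and 7.57% and 6.84% in the second. Xylt1, which starts the chain, was at 65.3 CPM against 12.9 and 13.8 CPM. Chst3 and Chst11, sulfotransferases of chondroitin, were at 33.7 and 22.3 CPM, against 4.25 and 4.19 in the other barcodes and 3.30 and 5.50 in Tnmd/Scx cells. Slc26a2, the sulfate transporter, was at 32.3 CPM against 14.9 and 16.9 CPM, a log2 ratio of 1.07 and 0.89. Ugdh, which makes the glucuronic acid precursor, was lower than in the other barcodes, at 53.1 against 150 CPM.

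Collagen folding and secretion genes stood close to the other cells. Of 23 in the files of 24 listed, 3 were higher and none lower than in the other barcodes (median log2 ratio 0.23), and 2 were higher and 2 lower than in Tnmd/Scx cells (median −0.15). The shares over all genes were 4.02% higher and 14.1% lower in the first comparison, and 7.57% and 6.84% in the second. Plod2, the lysyl hydroxylase of collagen telopeptides, was at 300 CPM against 81.4 and 173 CPM. P4ha1, a prolyl hydroxylase subunit, was at 248 CPM against 245 and 744 CPM, while its relative P4ha2 was at 66.4 CPM against 52.7 and 19.9 CPM. The prolyl hydroxylase subunits thus stood on opposite sides of the Tnmd/Scx cells.

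Genes that control mineral gave 6 higher and none lower of 7 past the filter, of 9 listed, against the other barcodes (median log2 ratio 1.49), and 5 higher and none lower against Tnmd/Scx cells (median 1.17). Without sub-cluster 4 these were 4 and 3, with medians of 1.40 and 0.20. With all cells kept, 4.02% of all genes were higher and 14.1% lower in the first comparison, and 7.57% and 6.84% in the second. Mgp, matrix Gla protein, an inhibitor of calcification, was at 5735 CPM in the chondrocyte-like cells and at 1534 and 1249 CPM in the references. Enpp1, which makes pyrophosphate, another inhibitor, was at 114 CPM against 22.4 and 53.9 CPM. Ank, which exports pyrophosphate or its precursor, was at 92.6 CPM against 33.9 and 82.2 CPM.

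Hypoxia and glycolysis genes, of interest because cartilage lacks vessels, gave 3 higher and 4 lower of 19 against the other barcodes (median log2 ratio 0.40), and 1 higher and 2 lower against Tnmd/Scx cells (median 0.29). Over all genes, 4.02% were higher and 14.1% lower in the first comparison, and 7.57% and 6.84% in the second. Bnip3, a mitochondrial protein induced in hypoxia, was at 115 CPM against 30.6 and 63.0 CPM. Adm and Car9, also induced in hypoxia, were the lower ones in both comparisons: Adm was at 4.67 CPM against 38.3 and 48.5 CPM, and Car9 at 3.23 CPM against 13.6 and 57.3 CPM. With a threshold of 2 rule genes the log2 ratio of Car9 against the other barcodes was 0.91, so its direction there depends on the threshold. Proteases of the matrix and their inhibitors gave 1 higher and 9 lower of 15 against the other barcodes (median −1.07), and 1 higher and 4 lower against Tnmd/Scx cells (median −0.59). Adamts5, an aggrecan-cleaving protease, was at 39.1 CPM against 249 and 58.4 CPM. Timp2, an inhibitor of matrix metalloproteases, was at 450 CPM against 960 and 1201 CPM.

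**Figure D3:**
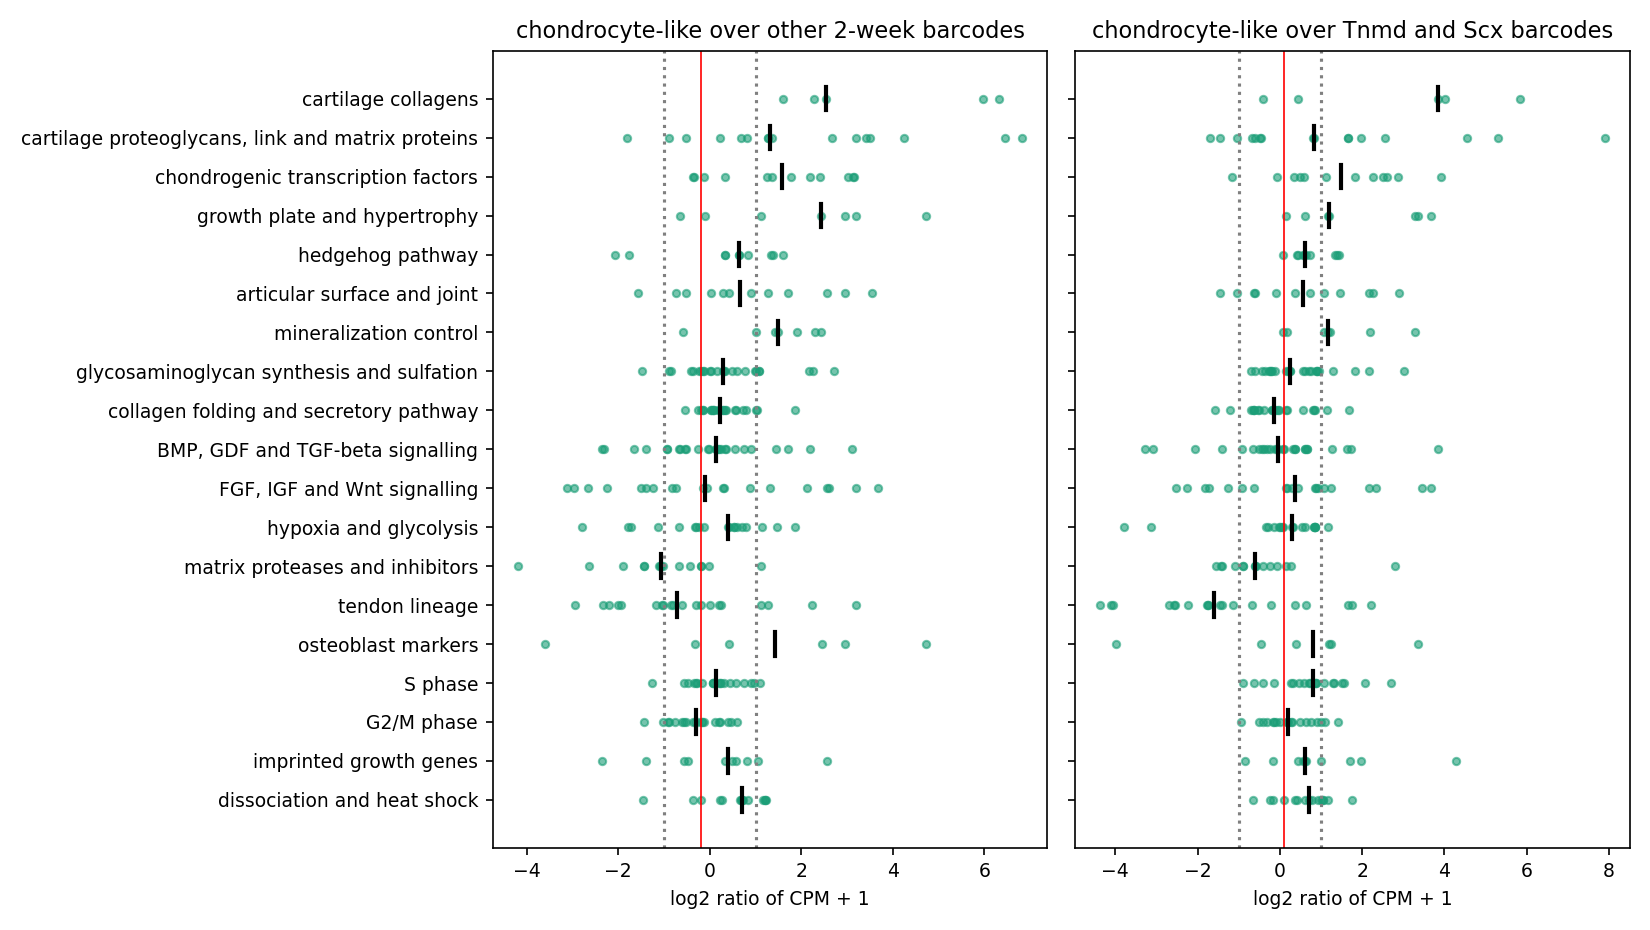
Log2 ratio of CPM + 1 for each gene (points) of 19 gene lists without the rule genes, against the other 2-week barcodes (left) and the Tnmd/Scx cells (right); black bars are list medians, dotted lines the 2-fold limits and red lines the median of all 12044 genes. Chondrogenic factors have medians of 1.57 and 1.48, and tendon genes of −0.71 and −1.60.

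Tendon genes were lower on median, though not absent. Of 20, 4 were higher and 8 lower than in the other barcodes (median log2 ratio −0.71), and 3 were higher and 13 lower than in Tnmd/Scx cells (median −1.60), which were themselves chosen by Tnmd and Scx. The shares over all genes were 4.02% higher and 14.1% lower, and 7.57% and 6.84% against Tnmd/Scx cells. Tnmd was at 1244 CPM (1203 to 1286) in the chondrocyte-like cells, 1888 CPM in the other barcodes and 7379 CPM in Tnmd/Scx cells. Tnmd UMIs were in 282 chondrocyte-like cells (66.8%) and in 43.7% of the other barcodes. The share was 40.3% in mural-marker barcodes, which leave out those that met the Tnmd and Scx condition. Thinned to equal depth these shares were 57.0%, 34.0% and 16.8%. Tnmd was thus detected in a larger share of the chondrocyte-like cells than of the other barcodes, although its CPM was smaller. Scx was at 81.1 CPM (70.9 to 92.4), 328 CPM and 1406 CPM, and in 16.1% of the chondrocyte-like cells. It was 4.04-fold lower than in the other barcodes, but with a threshold of 2 rule genes in place of 3 the log2 ratio was 0.11, so the direction of Scx in this comparison depends on the threshold.

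Type I collagen transcripts were detected in nearly all chondrocyte-like cells. Col1a1, a chain of type I collagen, was at 21871 CPM in them, 24910 CPM in the other barcodes and 72781 CPM in Tnmd/Scx cells, and it was detected in 418 of the 422, against 89.9% of mural-marker barcodes. Of the 422, 323 (76.5%) had UMIs of both Col2a1 and Col1a1, and 204 (48.3%) of both Col2a1 and Tnmd. Lox, the collagen cross-linking enzyme, was at 96.5 CPM against 221 and 571 CPM. Kera, keratocan, a small proteoglycan of tendon and cornea, was at 87.6 CPM against 407 and 1465 CPM. The tendon genes higher than in Tnmd/Scx cells were Comp, Col14a1 and Lum. Col14a1, a collagen that sits on fibril surfaces, was at 1484 CPM against 683 and 317 CPM. Lum, lumican, was at 451 CPM against 793 and 133 CPM.

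Markers of other cell types were scarce. The 8 mural markers summed to 441 CPM in the chondrocyte-like cells and 10998 CPM in the other barcodes, with all 8 lower, and 67.6% of the Acta2 UMIs and 69.0% of the Tagln UMIs came from 1 barcode. The 6 markers of progenitor fibroblasts summed to 205 against 2090 CPM, with all 6 lower. Myogenic markers summed to 1.08 against 69.2 CPM, with Pax7, Myf5, Cdh15 and Chrna1 at 0. Adipocyte markers summed to 1.44 against 199 CPM, of which Fabp4 alone made up 1.08 and 193 CPM, with Adipoq and Cidec at 0. The endothelial list had 5 of 6 markers at 0 and summed to 0.359 CPM, and the blood list had 3 of 6 at 0 and summed to 1.44 CPM. Red cell genes summed to 10.4 against 166 CPM. Osteoblast markers were the exception. Of 10, 6 passed, of which 3 were higher and 1 lower than in the other barcodes (median log2 ratio 1.43). Without sub-cluster 4 they were 1 higher and 4 lower (median −2.19). Against Tnmd/Scx cells they were 3 higher and 1 lower, and without sub-cluster 4 none higher and 5 lower.

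Cell cycle genes were near the level of the other barcodes. The shares over all genes were 4.02% higher and 14.1% lower there, and 7.57% and 6.84% against Tnmd/Scx cells. Of 20 S phase genes 1 was higher and 1 lower than in the other barcodes (median log2 ratio 0.14), and of 20 G2/M genes none was higher and 2 were lower (median −0.29). Against Tnmd/Scx cells 7 S phase genes were higher and none lower (median 0.80), and 3 G2/M genes were higher and none lower (median 0.19). Without the 57 cells that also met the Tnmd and Scx condition, no G2/M gene was higher than in Tnmd/Scx cells and 5 were lower (median −0.30). Mcm4, a subunit of the replicative helicase, was at 28.0 CPM against 14.5 and 5.91 CPM. After thinning to 2000 UMIs, 24 of 402 chondrocyte-like cells (5.97%, 3.86 to 8.75) had at least 3 UMIs of the 40 cycle genes, against 318 of 4326 other barcodes (7.35%, 6.59 to 8.17) and 49 of 788 Tnmd/Scx cells (6.22%, 4.64 to 8.14). These intervals overlap. Top2a and Mki67 UMIs came from 6 and 7 chondrocyte-like cells.

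Genes of the dissociation response were higher in part: 4 of 15 were higher and 1 lower than in the other barcodes (median log2 ratio 0.69), and 4 higher and none lower than in Tnmd/Scx cells (median 0.72). Over all genes the shares were 4.02% higher and 14.1% lower, then 7.57% and 6.84%. Junb, an immediate early factor, was at 2496 CPM against 1077 and 740 CPM, and the heat shock gene Hspa1a at 1217 CPM against 544 and 611 CPM. Their part in the other differences was not tested. Among 10 imprinted growth genes, Dlk1, a membrane protein of the Notch ligand family that restrains differentiation, stood out at 2935 CPM in 394 of the 422 cells, against 500 and 150 CPM. Thinned to equal depth, Dlk1 was in 87.6% of the chondrocyte-like cells, 31.7% of the other barcodes, 11.3% of the Tnmd/Scx cells and 19.9% of mural-marker barcodes. Plagl1 was at 151 CPM against 72.3 and 37.4 CPM. H19 and Igf2 were lower than in the other barcodes, H19 at 187 against 957 CPM and Igf2 at 473 against 1234 CPM.

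The genes with the largest ratios outside the rule are listed here as a description. Mall, Ppp1r1b, Chil1, Eps8l2, Cmtm5, Casr and Meltf were below 2 CPM in the other barcodes. They passed the filter only through the chondrocyte-like cells, so their high ratios against the other barcodes were fixed by the filter. Against the other barcodes the 12 largest were Mia, Cytl1, Col9a2, Col2a1, Ibsp, Mall, Ppp1r1b, Chil1, Eps8l2, Cmtm5, Scrg1 and Casr. Casr, the calcium-sensing receptor, was at 26.6 CPM (74 UMIs in 49 cells) against 0.563 and 0.275 CPM. Chil1, a chitinase-like protein secreted by chondrocytes, was at 35.5 CPM (99 UMIs in 60 cells) against 0.657 and 0.550 CPM. Ppp1r1b, a phosphatase inhibitor, was at 30.9 CPM in 65 cells against 0.406 CPM in the other barcodes. Against Tnmd/Scx cells the 12 largest also held Meltf, Susd5, Moxd1 and Dlk1. Cmtm5 and Meltf had no UMI in Tnmd/Scx cells and were at least 93.1-fold and 58.3-fold higher, with those cells set at 3 counts over the group. Susd5 was at 230 CPM against 8.94 CPM.

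The lowest genes were different ones in each comparison. Against the other barcodes they included Fabp4, Ccl2, Akr1c18, Pi16, Map3k7cl, Myh11, Tinagl1, Rcan2, Npy1r, Tagln and Mcam. Fabp4, a fatty acid carrier of adipocytes and capillaries, had 3 UMIs in the chondrocyte-like cells and 193 CPM in the others, a ratio of 0.00558 (0.00115 to 0.0163). Mural-marker barcodes held 4605 of the 6166 Fabp4 UMIs in the other barcodes, and 635 of 14328 for Pi16, a marker of progenitor fibroblasts. They held 16555 of 16906 for Myh11, a smooth muscle myosin, but Myh11 is among the markers that chose them. Against Tnmd/Scx cells the lowest were Col22a1, Chodl, Ptx4, C1qtnf3, Angptl7, Spock3, Bmp3, Kera, Arfgef3, Col13a1, Insc and Car9. Col22a1, the collagen of the myotendinous junction, had 1 UMI against 104 CPM, a ratio of 0.00347 (8.76e-05 to 0.0194). C1qtnf3 was at 11.5 CPM against 374 CPM, and Angptl7 at 23.7 CPM against 508 CPM.

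The chondrocyte-like cells were not uniform. Clustered on their own 1000 variable genes, they formed 6 sub-clusters of 150, 90, 54, 51, 40 and 37 cells. Sub-clusters were formed from the counts of these same cells, so the genes that lead one describe it and are not tested. In sub-cluster 2, Prg4 was at 11061 CPM and was detected in 89 of the 90 cells. Cytl1 was at 1278 CPM there in 69 cells, and the level of Col1a1 was 4000 CPM, the lowest of the 6. Sub-cluster 2 also held the highest levels of Sox9 (413 CPM), Sox5 (262 CPM) and Erg (121 CPM), with Tnmd at 124 CPM and Ibsp at 0. It was led by Cyp26a1, Cenpf, Hist1h2ae, Prg4, Gjc3, Tesc, Ube2c and Casr, of which Cenpf and Ube2c, cell cycle genes left out of the clustering, came from 3 cells each.

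Sub-cluster 4 was the contrary case. Its 51 cells were led by Bglap, Bglap2, Dkk1, Spp1, Aoc2, Alpl, Ibsp and Gm525, of which Bglap, Bglap2, Spp1 and Ibsp are osteoblast markers, so here the leading genes go against the name chondrocyte-like. Spp1 was at 6759 CPM in 41 of the cells and Ibsp at 3124 CPM in 38. Bglap, osteocalcin, was in 4 cells, and 93.0% of its UMIs were in 1. Cartilage genes were present too, with Col2a1 at 7076 CPM in 38 cells, Snorc at 2875 CPM in 48 and Chad at 6032 CPM, the highest of the 6. Col1a1 was at 64124 CPM, Cytl1 at 0 and Prg4 in 5 of the cells, with 5 UMIs. Ptch1 was at 150 CPM, Sfrp5, a secreted Wnt antagonist, at 266 CPM and Omd, osteomodulin, at 889 CPM. Without these cells the log2 ratio of Sfrp5 against Tnmd/Scx cells was −1.34 in place of 1.09. Of these 51 cells 22 also met the Tnmd and Scx condition and 25 had exactly 3 rule genes. At a resolution of 1.0, 36 of them formed their own sub-cluster, with 2199 of the 2259 Spp1 UMIs and 1008 of 1044 for Ibsp. The other 15 were grouped with all 40 cells of sub-cluster 5, described below. The cartilage gene levels of sub-cluster 4 given here therefore pool both kinds of cell.

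The Prg4 and Ibsp transcripts were seldom in the same cell. Prg4 was in 210 chondrocyte-like cells and Ibsp in 43, and 5 cells had both. Ibsp and Spp1, in contrast, were found together in 37 of the 43 cells with Ibsp.

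Sub-cluster 5, of 40 cells, had the most Col2a1 (14051 CPM) and was led by Enho, Mia, Snorc, Snhg9, Fgfr3, Mest, Apoe and Col2a1. Mia was at 2417 CPM and Snorc at 3487 CPM, and 23 of the 40 cells had all 6 rule genes although its median depth, 4719.5 UMIs, was the lowest. Sub-cluster 1, the largest, had the least Col2a1 (1215 CPM, in 82 of 150 cells) and 17.3% of its cells had all 6 rule genes. It was led by Clec3b, Apod, Mfap5, Tagln, Ly6a, Fbln2, Tppp3 and Serping1, with 73.3% of the Tagln UMIs and 73.8% of the Apod UMIs from 1 cell each. These leading genes came from few of the 150 cells, Clec3b from 16 and Ly6a from 12. At a clustering resolution of 1.0, 19 of the 150 formed a sub-cluster of their own that held 243 of the 248 Clec3b UMIs, 413 of 421 for Mfap5 and 110 of 113 for Ly6a. Those 19 cells had a median of 15246 UMIs, and among them were all 5 cells above 20000 UMIs and both cells with at least 3 mural markers. Sub-cluster 3 was led by Tnfaip2, Rel, Nr4a3, Pde4b, H2-Q4, Rrad, Mt2 and Hk2. Nr4a3 is an immediate early nuclear receptor and Mt2 a metallothionein, at 310 and 1310 CPM. Sub-cluster 6 was led by Cxcl2, Cxcl10, Dio3, Snai1, Agt, Mcrs1, Nudt19 and Dnajb1, and all 23 Cxcl2 UMIs were in 1 cell. The heat shock gene Dnajb1 was at 914 CPM there.

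**Figure D4:**
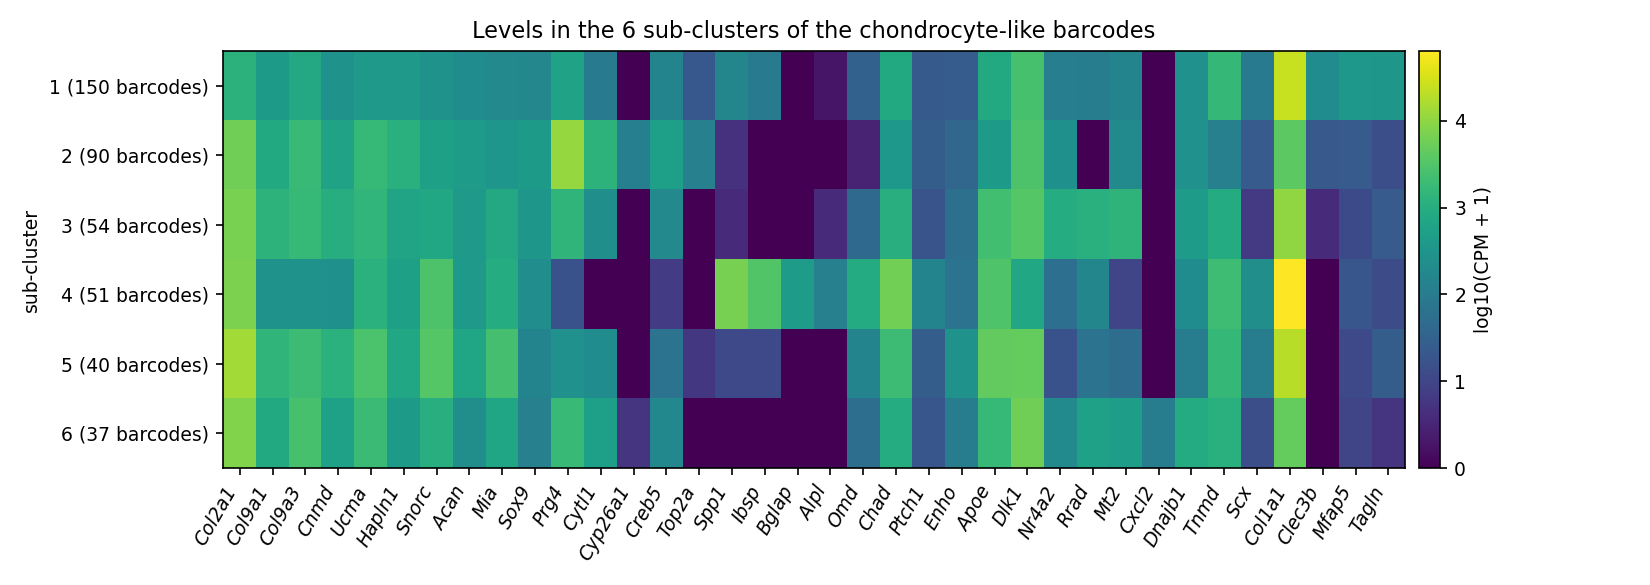
Level of 36 genes, as log10(CPM + 1), in the 6 sub-clusters of the 422 chondrocyte-like cells. Prg4 is at 11061 CPM in sub-cluster 2 and lowest in sub-cluster 4, Spp1 is at 6759 CPM in sub-cluster 4 and 3.83 in sub-cluster 2, and Col2a1 is lowest in sub-cluster 1 (1215 CPM).

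The same rule found no cell at 20 weeks. In replicate 1, 0 of 609 passing barcodes met it, which allows a share of up to 0.493% when set at 3 counts of the total (0.604% as the exact binomial upper limit). In replicate 2, 0 of 1015 met it, which allows up to 0.296% (0.363%). At 2 weeks 8.50% did. The 20-week libraries were shallower, with medians of 2848 and 5132 UMIs against 6570. Thinned to 1000 UMIs, 204 of 4964 barcodes (4.11%) met the rule at 2 weeks, 0 of 609 and 0 of 1015 at 20 weeks. With 1 library at 2 weeks, age and library cannot be told apart. Fewer cells of this kind and less RNA per cell cannot be told apart either in the summed levels that follow.

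Over all passing cells of the 20-week libraries, some genes of the chondrocyte-like cells were near 0 and others were not. The 2-week library held 16210 Col2a1 UMIs, and the 20-week replicates held 6 and 1. Snorc had 2900, 0 and 0, and Mia 1741, 0 and 0. Other genes high in the chondrocyte-like cells were present at 20 weeks: Prg4 was at 420 CPM at 2 weeks and at 4484 and 2325 CPM at 20 weeks. Comp was at 376, 4908 and 994 CPM, Chad at 332, 4088 and 734 CPM, and Cytl1 at 32.4, 647 and 120 CPM. Sox9 was at 45.3, 59.9 and 52.3 CPM. Prg4, Comp, Chad and Cytl1 were each higher in replicate 1 than in replicate 2.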

How the data were processed

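Single-cell RNA-seq of sorted mouse patellar tendon cells was done on 3 droplet libraries (10x 3′ chemistry), per the labels' protocols. The authors deposited raw UMI counts per gene and barcode, made with Cell Ranger 6.1.2 on mm10, per the submitters' processing notes. Annotation release and counting settings are not given in the sources used here.

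Barcodes were filtered as given above. Raw counts were summed over the chondrocyte-like cells and each reference and scaled to 1000000 UMIs (CPM), with exact Poisson 95% intervals for sums and exact binomial (Clopper-Pearson) intervals for shares. Log2 ratios, and the 2-fold limit set on them, used a pseudocount of 1 CPM. Ratios and folds not on the log2 scale were plain ratios of CPM without a pseudocount. Their 95% intervals were exact conditional intervals for the ratio of 2 Poisson rates. Genes with at least 2 CPM over the 4964 passing 2-week barcodes were counted, at a 2-fold limit. There are no replicates at 2 weeks, so no test was run. No doublet caller was run.

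Sub-clusters came from log-normalized counts of 1000 variable genes without cell cycle, mitochondrial, ribosomal and haemoglobin genes, 20 principal components, 15 neighbours and Leiden clustering at resolution 0.5 (python 3.11.15, numpy 2.4.6, scipy 1.17.1, pandas 2.3.3, python-igraph 0.11.9). They were not named. The log2 ratios of sums, the intervals for sums and shares, and the clustering were tested on simulated data.

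Genes named are the 12 highest and 12 lowest log2 ratios in each comparison outside the rule genes and, in the comparison with Tnmd/Scx cells, outside Tnmd and Scx, leaving out mitochondrial, ribosomal, haemoglobin and transgene features. The rule genes, Col2a1, Tnmd, Scx and examples of the lists taken for their textbook role are named too, as are 8 leading genes per sub-cluster among those with at least 50 CPM there. Leprel2 and Aldoa were not found under these symbols. A result withheld for evaluation is not reported here. The chondrocyte-like cells and the lists were chosen with earlier results of these data known.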

Additional observations from a re-analysis of the deposited data

Results flagged for a closer look

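Signal lay outside the main measurement in 3 places. Of 690 barcodes of the 2-week library under the filters, 4 (0.580%) had at least 3 rule genes; their median depth was 1179 UMIs, and 2 of them were above 10% mitochondrial UMIs. The feature list holds EGFP and tdTomato, and although the 2-week library is labelled WT, the chondrocyte-like cells had 186 EGFP UMIs in 109 of 422 barcodes (25.8%) and 60 tdTomato UMIs in 55 barcodes (13.0%). EGFP was found in 17.0% of the other 2-week barcodes, 28.1% of Tnmd/Scx cells and 2.59% of mural-marker barcodes. For tdTomato these shares were 15.8%, 28.1% and 12.2%. The feature tdTomato-WPRE had 0 UMIs in the 2-week barcodes counted. No group held 4 to 10 samples, so none was checked for an outlying sample.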

How the results depend on the processing

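Under 15 other settings, 688 gene ratios gave 10320 values. Of these, 8291 moved by no more than the counting error and 2004 by more. In the other 25, a ratio past 2-fold as reported changed sign. Any sign change of a ratio inside the 2-fold limit falls among the 8291 and 2004 and was not counted apart. The setting with no filter on low genes leaves every ratio as reported, so its 688 values had to fall among the 8291. Of 179 named or listed genes past 2-fold against the other barcodes, 138 to 179 remained so under each setting, and of 146 against Tnmd/Scx cells, 117 to 146. The share of chondrocyte-like cells was 11.6% at 2 rule genes, 6.55% at 4, 6.16% at 2 UMIs per gene, 6.09% thinned to 2000 UMIs, 7.44% without the cells that also met the Tnmd and Scx condition, and 7.55% without sub-cluster 4. At 2 rule genes 510 genes were lower than in Tnmd/Scx cells, and 7 and 7 barcodes met the rule at 20 weeks. Thinning gave 2687 genes lower than in the other barcodes, and 1665 higher and 1718 lower than in Tnmd/Scx cells. A pseudocount of 10 CPM gave 238 higher and 630 lower, and 313 higher and 274 lower. With no filter on low genes, 782 were higher than in the other barcodes. The causes were not tested.

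The log2 ratios past 2-fold as reported that changed sign were as follows, without ratios inside that limit. Against the other barcodes they were Scx 0.11, Angptl7 0.52, Car9 0.91 and Bmpr1b 0.30 at 2 rule genes, Bglap −3.24 at 4 rule genes and −1.32 at 2 UMIs per gene, and Adamts6 −0.080 and Bglap −3.77 thinned. Without sub-cluster 4 they were Spp1 −0.53, Alpl −0.76, Smpd3 −0.006 and Bglap −3.26. Against Tnmd/Scx cells they were Bglap −3.95 and Spp1 −0.63 at 4 rule genes, Bglap −1.98 and Spp1 −0.79 at 2 UMIs per gene, and Bglap −5.19, Spp1 −0.95, Myh11 0.40 and Nusap1 −0.35 thinned. Without the cells that also met the Tnmd and Scx condition they were Spp1 −0.59 and Nusap1 −0.13, and without sub-cluster 4 Spp1 −2.27, Bglap −4.46 and Sfrp5 −1.34.

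Leaving out sub-cluster 4, and leaving out the 19 cells of the deepest sub-cluster at resolution 1.0, were chosen after seeing the data. At that resolution there were 8 sub-clusters: sub-clusters 2 and 3 kept 88 of 90 and 54 of 54 cells together, sub-cluster 4 divided into 36 and 15, and sub-cluster 1 into 7 parts, the biggest of 67 of its 150 cells. With 2000 variable genes there were 6. No paired analysis was possible because the 2-week age has 1 library. Genes of a few UMIs, such as Runx2, Gdf5 and Fgfr3, are limited by depth.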
